A study of Mus musculus with 6 samples.

Results

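Levels of 10 genes for acute phase proteins of the liver were compared: Saa1, Saa2, Apcs, Crp, Orm1, Orm2, Hp, Hpx, Lcn2 and Lbp. They were chosen by function, as serum amyloid, pentraxin, orosomucoid, haptoglobin and related genes, and are 10 of the 23284 genes in the count files. All 10 were among the 12453 genes with enough reads to be tested. Liver RNA came from male FXR floxed mice, in which Cre can remove the gene for farnesoid X receptor (FXR, gene Nr1h4), the nuclear receptor for bile acids. Every mouse received AAV8 carrying Cre at 8 weeks of age, together with a second AAV8 for FXR-WT in 3 mice or for Y67F-FXR in 3 mice. Y67F-FXR has phenylalanine in place of a tyrosine that can be phosphorylated. Both vectors use the TBG promoter, which is active in hepatocytes, so the other cells of the liver are expected to keep their own FXR. All 6 mice then ate chow holding 0.5% cholic acid, a bile acid that activates FXR, for 6 h before the livers were collected, 4 weeks after the vectors. The labels name no inflammatory stimulus, and mice on normal chow were not analysed here.

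Acute phase proteins are plasma proteins whose output by hepatocytes changes during infection or injury. Interleukin-6 signals through its receptor Il6ra and gp130 (gene Il6st) to JAK kinases and STAT3, and interleukin-1 signals through Myd88 to NF-kB. C/EBP factors bind many of the same promoters, and interleukin-1 and interleukin-6 together drive Saa1 and Saa2 most strongly. The response differs between species: in mice the serum amyloid A proteins and serum amyloid P are major reactants, and C-reactive protein is a modest one.

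To see what the promoters of these genes share in sequence, the bases before the start of transcription were taken from RefSeq on GRCm38.p6, a later build than the mm9 of the count files. A window was at hand for Saa1, Saa2, Apcs, Crp, Orm2, Hpx and Lcn2, which is 7 of the 10 genes. The windows searched ran from 250 bases before the start to 50 bases after it, on both strands. The C/EBP motif TTGCNNAA was found in 5 of 7, against 10.8% of all 32851 windows of that length. It lay at bases -182 to -175 of Saa1, -183 to -176 of Saa2, -120 to -113 of Orm2, -200 to -193 of Hpx and -216 to -209 of Lcn2, where -1 is the base before the start. Apcs and Crp had no such match. Apcs alone held the STAT motif TTCNNNGAA, at bases -244 to -236, which 8.3% of all windows hold. Apcs alone also held CTGGGAA, a core of interleukin-6 response elements, with 2 matches on the minus strand, at bases -129 to -123 and -52 to -46, against 11.1% of all windows. The NF-kB consensus was in 0 of 7 windows (4.51% of all), and the HNF1 consensus likewise in 0 of 7 (0.00913% of all). The 2 serum amyloid A windows were 95.3% identical. The 250 bases before the start are shown for the 4 C/EBP-bearing genes whose level varied most between livers and for Apcs, whose groups did not overlap. Capitals mark the C/EBP match in the first 4 and the STAT match in Apcs. The regions are chr7:46742981-46743230, minus strand (Saa1), chr7:46751583-46751832, plus strand (Saa2), chr4:63362199-63362448, plus strand (Orm2), chr2:32387740-32387989, minus strand (Lcn2) and chr1:172895055-172895304, minus strand (Apcs).
Saa1: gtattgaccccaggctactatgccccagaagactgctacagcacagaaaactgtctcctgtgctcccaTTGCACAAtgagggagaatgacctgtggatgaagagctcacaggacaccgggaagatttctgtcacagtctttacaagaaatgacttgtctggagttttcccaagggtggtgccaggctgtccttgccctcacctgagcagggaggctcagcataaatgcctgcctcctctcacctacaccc
Saa2: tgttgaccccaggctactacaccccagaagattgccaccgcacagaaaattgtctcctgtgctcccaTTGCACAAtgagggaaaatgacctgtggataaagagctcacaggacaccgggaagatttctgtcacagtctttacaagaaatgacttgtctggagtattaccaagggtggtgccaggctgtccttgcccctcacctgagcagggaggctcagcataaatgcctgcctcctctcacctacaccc
Orm2: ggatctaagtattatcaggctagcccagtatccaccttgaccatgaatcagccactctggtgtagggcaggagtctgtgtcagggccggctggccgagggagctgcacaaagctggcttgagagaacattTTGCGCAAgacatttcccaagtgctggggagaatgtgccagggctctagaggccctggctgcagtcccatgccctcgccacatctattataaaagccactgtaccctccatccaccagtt
Lcn2: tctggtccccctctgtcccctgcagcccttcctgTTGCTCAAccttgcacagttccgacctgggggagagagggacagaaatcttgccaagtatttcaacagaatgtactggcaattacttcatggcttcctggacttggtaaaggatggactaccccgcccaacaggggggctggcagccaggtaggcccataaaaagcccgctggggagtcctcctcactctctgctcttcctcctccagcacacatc
Apcs: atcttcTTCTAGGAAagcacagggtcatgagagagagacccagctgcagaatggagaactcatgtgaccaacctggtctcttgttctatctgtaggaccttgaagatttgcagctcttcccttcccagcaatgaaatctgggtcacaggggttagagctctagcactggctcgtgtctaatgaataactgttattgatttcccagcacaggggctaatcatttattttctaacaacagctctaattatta
These matches describe letters in a window and not binding in these livers.

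Library totals ranged from 19551113 to 22053320 counted reads. Levels are given as CPM, a gene's reads per mega-read counted in its library, scaled between libraries by TMM factors of 0.938 to 1.05, and livers are listed as replicates 1, 2 and 3 of each group. Differences are fitted log2 fold changes of Y67F-FXR over FXR-WT with their standard error, tested with edgeR's quasi-likelihood test and adjusted over all 12453 genes by Benjamini-Hochberg. Calls needed an adjusted p under 0.05 and a fold over 1.5. None of the 10 acute phase genes was called, against 0.972% of all genes tested. Without adjustment, 3 of the 10 had p under 0.05, and DESeq2 and edgeR's likelihood ratio test each called 1, Apcs, where they called 3.46% and 3.59% of all genes. By the unadjusted p, 2 of 10 were lower in Y67F-FXR (6.67% of all genes) and 1 was higher (6.75% of all genes). The fitted direction was lower in Y67F-FXR for 9 of 10, against 48% of all genes, and the median log2 fold change was -0.25 for the 10 genes and 0.01 for all genes. The 10 genes were measured in the same 6 livers, and 8 of them were lowest in the same liver, Y67F-FXR replicate 1. With 3 livers a group, the smallest two-sided p that an exact permutation test of 1 gene allows is 0.1. The labels do not say more of the mice than their group and number, and p-values measure the spread between these 6 livers.

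**Figure D1:**
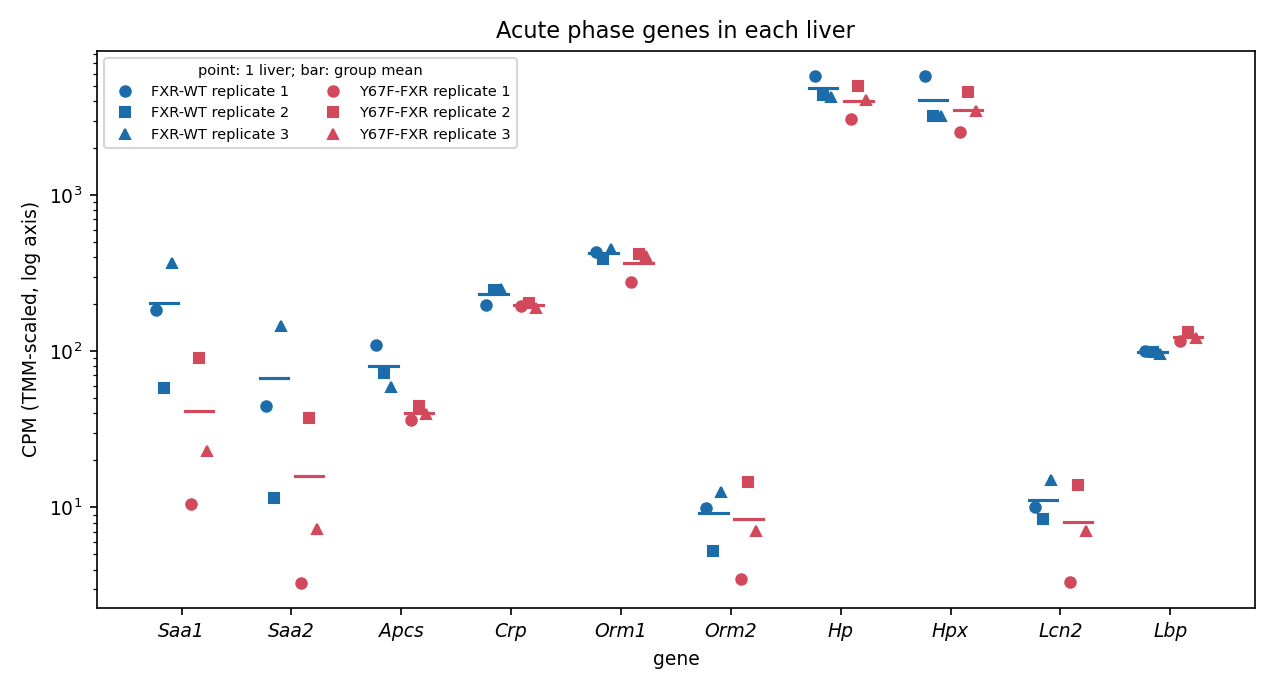
Level of each acute phase gene in each liver, in TMM-scaled CPM on a log axis, with 1 point per liver (circle, square and triangle for replicates 1, 2 and 3) and a bar at the group mean. Saa1 and Saa2 spread over the widest range, from 10.5 to 368 CPM and from 3.31 to 145 CPM, and Apcs and Lbp are the genes whose groups do not overlap.

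Saa1 and Saa2 encode the serum amyloid A proteins that are carried on high-density lipoprotein in the acute phase. Saa1 (mm9 chr7:53995869-53998350, minus strand, 4 exons) stood at 185, 58.4 and 368 CPM in the FXR-WT livers and at 10.5, 91.0 and 23.2 CPM in the Y67F-FXR livers. The groups overlapped, because Y67F-FXR replicate 2 was above FXR-WT replicate 2. Group means were 204 ± 156 and 41.6 ± 43.3 CPM (SD, n = 3 each). The log2 fold change of Saa1 was -2.30 ± 0.86 (SE), with an unadjusted p under 0.05 and an adjusted p of 0.294. Without FXR-WT replicate 3 it was -1.55, and without Y67F-FXR replicate 2 it was -3.62. The unadjusted p was under 0.05 in 13 of 16 alternatives, and leaving out FXR-WT replicate 3, Y67F-FXR replicate 1 or Y67F-FXR replicate 3 took it past 0.05.

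Saa2 (chr7:54007203-54009684, plus strand, 4 exons), which lies beside Saa1 and is transcribed away from it, was at 44.6, 11.5 and 145 CPM in FXR-WT and at 3.31, 37.4 and 7.26 CPM in Y67F-FXR. Its groups overlapped in the same way, with FXR-WT replicate 2 below Y67F-FXR replicate 2. Means were 67.01 ± 69.4 and 15.99 ± 18.7 CPM (SD, n = 3 each). The log2 fold change of Saa2 was -2.08 ± 1.03 (SE; adjusted p = 0.446). It ran from -3.69 without Y67F-FXR replicate 2 to -0.82 without FXR-WT replicate 3. The highest liver exceeded the lowest 43.8-fold for Saa2 and 35.1-fold for Saa1. Only 0.0321% and 0.0562% of all genes tested had a wider range over the 6 livers.

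Much of this range lay within the groups. Within FXR-WT, the highest liver was 6.31-fold above the lowest for Saa1 and 12.6-fold for Saa2. Within Y67F-FXR the same folds were 8.67 and 11.3. The fitted difference between groups was 4.91-fold for Saa1 and 4.21-fold for Saa2, which is smaller than each of these within-group folds. It compares group means and not the highest and lowest single livers, so the measures are unlike. Saa1 reads outnumbered Saa2 reads 4.14, 5.06 and 2.54 to 1 in FXR-WT and 3.18, 2.43 and 3.19 to 1 in Y67F-FXR. The 2 genes thus kept their order in every liver. Their longest coding transcripts were 87.3% identical in alignment, and no stretch of 100 bases, the read length, occurred unchanged in another gene.

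Of the genes near them in the family, Saa4, the constitutive serum amyloid A of the liver, was at 272, 298 and 363 CPM in FXR-WT and at 235, 192 and 277 CPM in Y67F-FXR (log2 fold change -0.40 ± 0.17, adjusted p = 0.369). FXR-WT replicate 1 and Y67F-FXR replicate 3 were the pair that overlapped. Saa3, which is made in macrophages and fat as well, was at 13.5, 2.96 and 4.10 CPM against 2.43, 14.3 and 3.01 CPM. It was high in FXR-WT replicate 1 and Y67F-FXR replicate 2 and low in the other 4 livers, and its log2 fold change was -0.07 (adjusted p = 0.987).

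Apcs and Crp encode the short pentraxins serum amyloid P and C-reactive protein, pattern-recognition proteins that bind microbial surfaces and cell debris. Apcs (chr1:174824092-174825185, minus strand, 2 exons) had 110, 72.6 and 59.1 CPM in FXR-WT and 36.4, 44.9 and 39.6 CPM in Y67F-FXR. All 3 Y67F-FXR livers were below all 3 FXR-WT livers, as for 10.5% of all genes tested, and Apcs was the only 1 of the 10 acute phase genes with this order. The means of 80.6 ± 26.5 and 40.3 ± 4.29 CPM (SD, n = 3 each) differed 2.00-fold. The log2 fold change of Apcs was -1.001 ± 0.23 (SE), and the adjusted p of 0.0994 missed the threshold. It was called by DESeq2 (adjusted p = 0.00374), by the likelihood ratio test (0.00342) and with edgeR offsets for gene length (0.0189), a fit that called 2% of all genes. Without FXR-WT replicate 1, its highest liver, the log2 fold change was -0.71 (adjusted p = 0.127). With the other livers left out in turn it ran from -1.18 to -0.93 (adjusted p from 0.105 to 0.359). The unadjusted p was under 0.05 in each of the 15 alternatives run.

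Crp (chr1:174628187-174630097, plus strand, 2 exons) lay between 189 and 252 CPM in all livers. It was at 197, 245 and 252 CPM in FXR-WT and at 196, 204 and 189 CPM in Y67F-FXR. FXR-WT replicate 1 sat among the Y67F-FXR livers, and the other FXR-WT livers were above them. Its log2 fold change was -0.24 ± 0.13 (adjusted p = 0.507), and the 6 livers spanned 1.33-fold, a narrower range than for 81.1% of the genes tested.

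Orm1 and Orm2 encode orosomucoid, or alpha-1-acid glycoprotein, which binds basic drugs and dampens leukocyte activation. Orm1 (chr4:63005600-63009196, plus strand, 6 exons) was at 435, 389 and 451 CPM in FXR-WT and at 279, 421 and 408 CPM in Y67F-FXR. By CPM, Y67F-FXR replicate 1 stood apart below the other 5 livers. The log2 fold change was -0.20 ± 0.17 (adjusted p = 0.703), with -0.04 without that liver and -0.32 without Y67F-FXR replicate 2. With offsets for gene length, Y67F-FXR replicate 1 no longer stood apart, at a log2 CPM of 8.38 against 8.41 in Y67F-FXR replicate 2. Orm2 (chr4:63023483-63026911, plus strand, 6 exons) was much less abundant, at 9.88, 5.24 and 12.5 CPM in FXR-WT and 3.50, 14.6 and 7.06 CPM in Y67F-FXR. By CPM, both the lowest and the highest liver for Orm2 were Y67F-FXR livers. With offsets for gene length, the highest was FXR-WT replicate 3. Without offsets, the fitted difference was -0.14 ± 0.50 on the log2 scale (adjusted p = 0.95). It became 0.15 without FXR-WT replicate 3 and 0.23 without Y67F-FXR replicate 1, and was -0.82 without Y67F-FXR replicate 2. Orm1 and Orm2 transcripts were 91% identical, and 6.95% of their 100-base windows occurred in each other. Some of their reads may thus not have been assigned to either gene. The third gene of the family, Orm3, had 0.636, 1.79 and 2.64 CPM against 1.22, 3.66 and 2.58 CPM (adjusted p = 0.747).

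Hp and Hpx encode haptoglobin and hemopexin, which capture free haemoglobin and free haem in plasma. They were the most abundant of the 10 genes. Hp (chr8:112099028-112103072, minus strand, 5 exons) was at 5789, 4405 and 4271 CPM in FXR-WT and at 3060, 4994 and 4049 CPM in Y67F-FXR. Its highest liver was FXR-WT replicate 1 and its lowest Y67F-FXR replicate 1, with the other 4 between 4049 and 4994 CPM. Hpx (chr7:112740125-112748630, minus strand, 10 exons) was at 5780, 3235 and 3229 CPM in FXR-WT and at 2525, 4588 and 3482 CPM in Y67F-FXR. The same livers were at its ends. The log2 fold changes were -0.26 ± 0.21 for Hp (adjusted p = 0.685) and -0.21 ± 0.29 for Hpx (adjusted p = 0.839). For Hp it was -0.11 without FXR-WT replicate 1, -0.09 without Y67F-FXR replicate 1 and -0.45 without Y67F-FXR replicate 2. For Hpx the difference turned to 0.13 without FXR-WT replicate 1, and it was -0.02 without Y67F-FXR replicate 1 and -0.45 without Y67F-FXR replicate 2. The ratio of Hp to Hpx counts lay between 1.00 and 1.36 in the 6 livers.

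Lcn2 encodes lipocalin-2, which withholds iron from bacteria by binding their siderophores and is made by hepatocytes in the acute phase and by neutrophils. Lcn2 (chr2:32240157-32243259, minus strand, 6 exons) was at 10.02, 8.44 and 14.9 CPM in FXR-WT and at 3.35, 13.9 and 7.11 CPM in Y67F-FXR, from 69 to 346 reads. Y67F-FXR replicate 1 was the lowest of all, and Y67F-FXR replicate 2 was above FXR-WT replicates 1 and 2. The log2 fold change was -0.46 ± 0.46 (adjusted p = 0.745). It was -0.09 without Y67F-FXR replicate 1 and -1.10 without Y67F-FXR replicate 2. Neutrophil markers summed to 8.46, 8.24 and 4.62 CPM in FXR-WT and to 3.06, 3.76 and 2.58 CPM in Y67F-FXR over the 11 markers in the count files. All Y67F-FXR sums were below all FXR-WT sums, an order that 10.5% of all genes tested had singly. S100a8, S100a9 and Csf3r carried this order, with 136, 141 and 88 reads in FXR-WT and 40, 35 and 39 in Y67F-FXR. The other 8 markers overlapped between groups, with 37, 29 and 19 reads against 23, 34 and 15, among them Retnlg with 8, 8 and 4 against 4, 18 and 3 reads. Only 4 of the 11 had enough reads to be tested, and 3 of these were lower by unadjusted p (6.67% of all genes). Of the 11, Mpo was at 0 in all livers, and the granule genes Ngp, Camp and Ltf had 0 to 2 reads each. S100a8, an abundant neutrophil calcium-binding protein, had 26, 20 and 20 reads in FXR-WT and 5, 3 and 1 reads in Y67F-FXR (log2 fold change -2.73, adjusted p = 0.0529). In bulk liver, fewer cells of a type and less RNA per cell cannot be told apart. The part of neutrophils in the Lcn2 values was not tested.

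Lbp encodes the lipopolysaccharide-binding protein, which hands bacterial lipopolysaccharide to Cd14 and the Tlr4 receptor. It was the only 1 of the 10 genes with a higher fitted level in Y67F-FXR. Lbp (chr2:158132229-158158588, plus strand, 15 exons) was at 101, 98.5 and 96.5 CPM in FXR-WT and at 117, 133 and 122 CPM in Y67F-FXR. All 3 Y67F-FXR livers were above all 3 FXR-WT livers, as for 10.2% of all genes. The means were 98.6 ± 2.17 and 124 ± 8.32 CPM (SD, n = 3 each), a fitted fold of 1.26. The fitted log2 value was 0.33 ± 0.11 (SE), with an adjusted p of 0.238. Its unadjusted p was under 0.05 here and in 11 of 15 alternatives. The FXR-WT livers spanned only 1.04-fold for Lbp, the narrowest span of the 10 genes in that group.

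**Figure D2:**
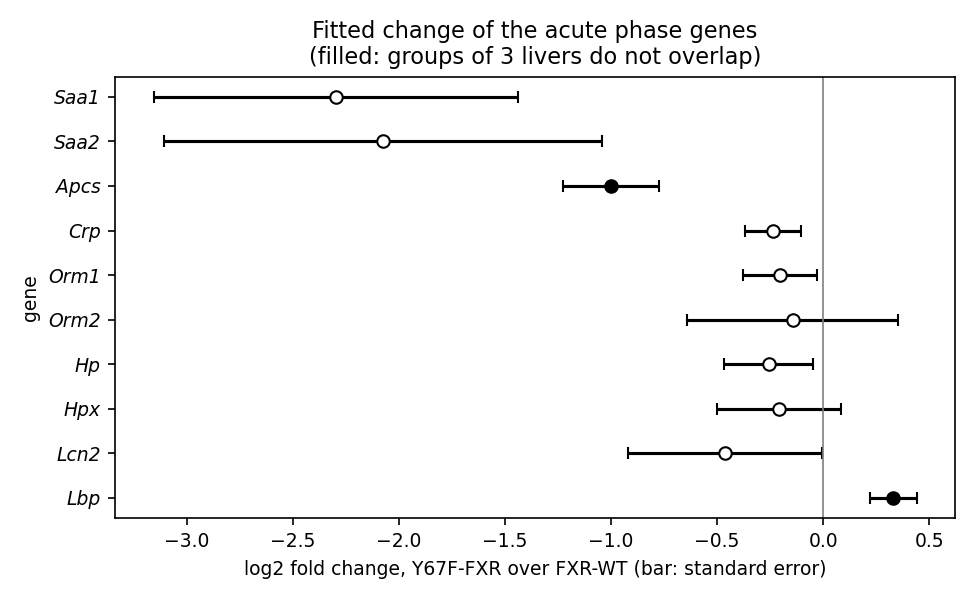
Fitted log2 fold change of each acute phase gene, Y67F-FXR over FXR-WT, with bars for the standard error and filled points where the groups of 3 livers do not overlap. Saa1 and Saa2 have the largest values, -2.30 and -2.08, with standard errors of 0.86 and 1.03, and Lbp at 0.33 is the only point above 0.

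Per kilobase of exon, which allows levels of different genes to be compared, Hp averaged 3292 and Hpx 2572 CPM per kb over the 6 livers. Orm1 followed at 517, Saa1 at 202, Crp at 126, Saa2 at 68.0, Apcs at 61.4, Lbp at 44.1, Orm2 at 11.4 and Lcn2 at 11.3 CPM per kb. Without FXR-WT replicate 3, Saa1 averaged 121 CPM per kb, level with Crp at 122, and Saa2 averaged 34.2, below Apcs at 61.7 and Lbp at 45.3. Hp was above Hpx, Hpx above Orm1 and Lbp above Orm2 in 6 of 6 livers. Orm1 was above Saa1, and Crp above Saa2, in 5 of 6. The neighbours Saa1 and Crp were in the stated order in 3 of 6 livers, Saa2 and Apcs in 2, and Orm2 and Lcn2 in 4. The order of those pairs thus changed between livers, and their differences in level were not tested. Apcs was above Lbp in 3 of 6 livers, which were the 3 FXR-WT livers, and below it in the 3 Y67F-FXR livers.

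The livers differed from one another across the group of genes. Y67F-FXR replicate 1 was the lowest liver for 8 of the 10 genes, all but Crp and Lbp, whereas it was the lowest for 18.4% of all genes tested. FXR-WT replicate 3 was the highest for Saa1, Saa2, Crp, Orm1 and Lcn2, and FXR-WT replicate 1 for Apcs, Hp and Hpx. Y67F-FXR replicate 2 was the highest for Orm2 and Lbp. Reads of the 10 genes made up 1.27%, 0.871% and 0.934% of the counted reads in FXR-WT and 0.636%, 0.989% and 0.809% in Y67F-FXR, most of them from Hp and Hpx. Saa1 lay 2.66 below its mean over the 6 livers on the log2 scale in Y67F-FXR replicate 1 and 1.52 below in replicate 3, but 0.45 above in replicate 2. Lcn2 lay 1.34 below and Orm2 1.15 below in Y67F-FXR replicate 1, and they were 0.68 and 0.89 above in replicate 2.

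**Figure D3:**
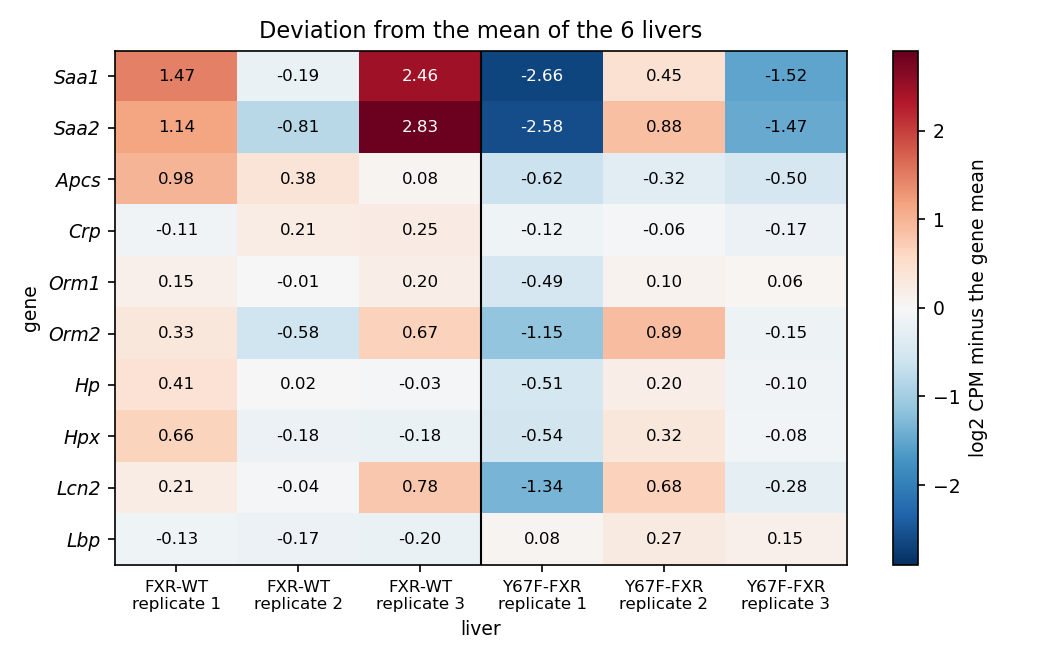
Log2 CPM of each acute phase gene in each liver minus the gene's mean over the 6 livers, in red above and in blue below the mean. Y67F-FXR replicate 1 is below the mean for 9 of the 10 genes, and Y67F-FXR replicate 2 is above it for all but Apcs and Crp.

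Short genes moved with some of the same livers. Of the 10 acute phase genes, 8, all but Crp and Lbp, were within the shortest 20% of the genes tested (up to 1598 exon bases, 2491 genes). The median of those 2491 genes deviated by 0.20, -0.02 and -0.18 on the log2 scale in FXR-WT and by -0.20, 0.22 and -0.01 in Y67F-FXR. Y67F-FXR replicate 1 was the lowest liver for 35.7% of these short genes, and Y67F-FXR replicate 2 the highest for 43.5%. FXR-WT replicate 3, the highest liver for 5 of the 10 genes, was the highest for only 6.46% of the short genes. It was the lowest for 33.4% of them. With offsets that level this trend, Y67F-FXR replicate 1 was still the lowest for 7 of the 10 genes and FXR-WT replicate 3 the highest for 6. Kupffer cell and monocyte markers summed to 447, 368 and 294 CPM in FXR-WT and 241, 645 and 388 CPM in Y67F-FXR, so that the lowest and highest sums were also in Y67F-FXR replicates 1 and 2. Of these 14 markers (Adgre1 under its older symbol Emr1), none was called and none was at 0 in all livers. Marco, a scavenger receptor of Kupffer cells, reached 62.2 CPM in Y67F-FXR replicate 2 against 5.40 to 16.5 CPM elsewhere (log2 fold change 1.63, adjusted p = 0.388). The lower marker with the smallest p was Ly6c2 of monocytes (-0.73, adjusted p = 0.597). Their part in the values of the acute phase genes was not tested.

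Over the 6 livers, Saa1 and Saa2 went together most closely (Pearson r = 0.979 of log2 CPM), and Hp and Hpx followed with 0.942. Lcn2 had r of 0.908 with Saa2, 0.93 with Orm2 and 0.924 with Orm1. Lbp and Apcs had -0.714, and Crp and Hpx -0.26. These are descriptions over 6 libraries that share the length trend above. Among 8851 genes averaging at least 5 CPM, those most like Saa2, the gene with the widest range, were Saa1, Atp6v1d (r = 0.966), 5730455O13Rik (0.961), Fert2 (0.952) and Creld1 (0.948). After Saa1, these ranged far less between livers than Saa2, whose log2 CPM spanned 5.41. The spans were 0.13 for Atp6v1d, a subunit of the proton pump of lysosomes, 0.37 for 5730455O13Rik, 0.58 for Fert2 and 0.42 for Creld1, against a median of 0.70 over all genes.

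A further 25 genes, paralogs of the 10 genes and others known to rise in an acute phase, were looked at together, of which 24 were tested and 0 were called. By unadjusted p under 0.05, 7 were lower and 1 was higher in Y67F-FXR (6.67% and 6.75% of all genes), and the median log2 fold change of the 24 was -0.08. The lower ones were Saa4, listed as a paralog since it is constitutive, and 6 others. Fga, Fgb and Fgg, the chains of fibrinogen, had log2 fold changes of -0.39, -0.53 and -0.34, and in each the Y67F-FXR livers were all below the FXR-WT livers, as for 10.5% of all genes. Serpina10, the inhibitor of coagulation factor X that depends on protein Z, had 313, 225 and 247 CPM in FXR-WT and 135, 167 and 153 CPM in Y67F-FXR (log2 fold change -0.78, adjusted p = 0.075). The ferric reductase gene Steap4 stood at -0.96 (adjusted p = 0.0959) and the fibrinogen-like gene Fgl1 at -0.77 (adjusted p = 0.178). Metallothionein Mt2, which binds zinc and copper, was the higher one, at 27.2, 5.87 and 6.26 CPM in FXR-WT and 30.9, 61.1 and 66.8 CPM in Y67F-FXR (log2 fold change 2.02, adjusted p = 0.186).

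The 12 negative acute phase genes, whose output drops in inflammation, had 0 called, a median log2 fold change of 0.03 and 2 lower by unadjusted p (6.67% of all genes). The smallest p was that of Serpina6, the corticosteroid carrier of plasma, at 375, 311 and 302 CPM against 230, 214 and 287 CPM (log2 fold change -0.44, adjusted p = 0.266). In the other direction, Apoa2, an apolipoprotein of high-density lipoprotein, was at 0.45 (adjusted p = 0.562). Albumin (Alb) was at 67623 to 76522 CPM in the 6 livers, with a log2 fold change of 0.01.

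Upstream of these genes, 1 of 18 genes for cytokine receptors and JAK-STAT3 signalling was called (0.972% of all genes), with 1 lower and 1 higher by unadjusted p (6.67% and 6.75% of all genes) and a median log2 fold change of -0.02. Lifr, the receptor subunit that binds leukemia inhibitory factor beside gp130, fell from 150, 207 and 217 CPM in FXR-WT to 95.0, 75.4 and 94.1 CPM in Y67F-FXR. The log2 fold change was -1.12 ± 0.17 (edgeR adjusted p = 0.0336). The call was kept without FXR-WT replicate 1 (adjusted p = 0.02), and each other liver left out took it past the threshold, to between 0.0755 and 0.137, with log2 fold changes of -1.18 to -1.02. With replicate number as a block in the fit, the edgeR adjusted p of Lifr was 0.149, and 0.0264 with length offsets added. The interleukin-6 receptor chains were near 0 difference, with Il6ra at 0.13 (adjusted p = 0.936) and Il6st at 0.08 (0.87). Myd88 had the smallest p among the higher genes, at 17.5, 14.7 and 16.3 CPM against 19.9, 21.2 and 20.7 CPM (log2 fold change 0.35, adjusted p = 0.263). Socs3, a feedback target of STAT3, was at 4.35, 5.43 and 6.39 CPM in FXR-WT and at 5.64, 6.76 and 4.20 CPM in Y67F-FXR (log2 fold change 0.03).

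None of the 18 transcription factors and their partners was called, with 1 lower and 3 higher by unadjusted p (6.67% and 6.75% of all genes) and a median of 0.14. Nr0b2, the repressor SHP and a direct target of FXR, was at 81.9, 63.7 and 59.5 CPM in FXR-WT and 6.42, 25.9 and 7.59 CPM in Y67F-FXR (log2 fold change -2.37, adjusted p = 0.0862). Creb3l3, a membrane-bound factor of hepatocytes known to act on Crp and Apcs, was higher, at 321, 390 and 416 CPM against 491, 533 and 518 CPM (log2 fold change 0.45, adjusted p = 0.184). The other higher ones were Nfkbia (0.44) and Ppara (0.58). Stat3 stood at 0.18 (adjusted p = 0.645) and Cebpb at 0.57 (0.486). Nr1h4 was at 152 to 209 CPM in FXR-WT and 169 to 186 CPM in Y67F-FXR (log2 fold change -0.09, adjusted p = 0.861). Reads of the mouse gene and of the vector were not told apart in it, so it does not check the labels.

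Downstream, 1 of 14 tested genes for binding partners and receptors of these proteins was called (0.972% of all genes), of 16 listed, with 2 lower and 0 higher by unadjusted p (6.67% and 6.75% of all genes) and a median log2 fold change of 0.09. Scarb1, the receptor for high-density lipoprotein, which also takes up serum amyloid A, fell from 295, 285 and 266 CPM in FXR-WT to 168, 185 and 180.5 CPM in Y67F-FXR (log2 fold change -0.66 ± 0.11, edgeR adjusted p = 0.0429). With any 1 liver left out its adjusted p was 0.0755 to 0.221, with log2 fold changes of -0.70 to -0.62. With replicate number as a block, the edgeR adjusted p of Scarb1 was 0.239, and 0.101 with length offsets added. The smallest p in the other direction was that of Lrp1, the receptor for haem-hemopexin (log2 fold change 0.25, adjusted p = 0.464). Cd163, the macrophage receptor for haptoglobin-haemoglobin, was at 0.23 (adjusted p = 0.7), and Cd14 at 0.37 (0.804).

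**Figure D4:**
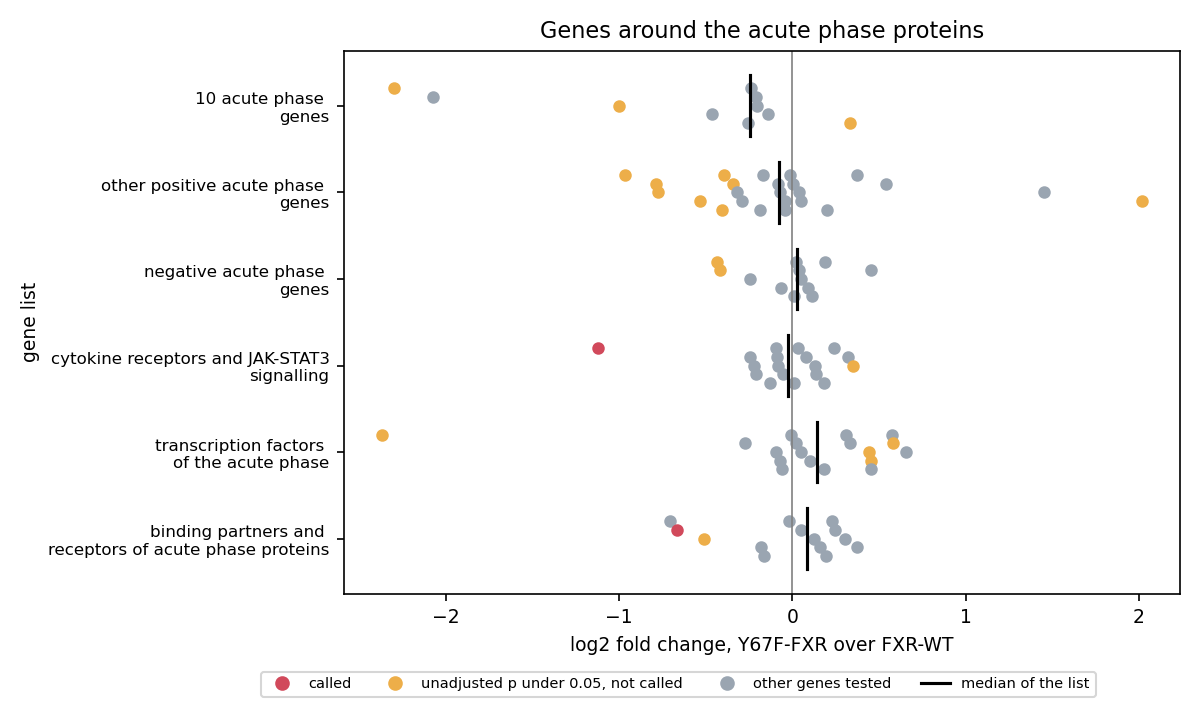
Fitted log2 fold change, Y67F-FXR over FXR-WT, of the 10 acute phase genes and of 5 lists of genes around them, with 1 point per tested gene, red where called, orange where only the unadjusted p was under 0.05, and a bar at the median of each list. The red points are Lifr at -1.12 and Scarb1 at -0.66, and the medians lie between -0.25 and 0.14.

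The tissue matched its label by hepatocyte markers. The 10 markers, among them Alb, Apob and Cps1, summed to between 114800 and 135112 CPM, and 0 of 10 were called. The smallest p among them was that of Cps1, the urea cycle carbamoyl phosphate synthetase (log2 fold change 0.46, adjusted p = 0.505), and in the other direction that of Apob, the apolipoprotein of very low density lipoprotein (-0.12, adjusted p = 0.882). Adipocyte markers summed to 0.733 to 6.88 CPM, with Lep at 0 in all livers, and Cfd, the 1 gene tested, stood at 0.26 on the log2 scale (adjusted p = 0.931).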

How the data were processed

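RNA-seq libraries of 6 livers, 3 per group, were read from both ends. The authors deposited raw counts per gene for each liver, made with STAR (2.5.3a in the submitters' processing notes), Trimmomatic 0.36 and featureCounts 1.4.6-p4, with gene models of UCSC for mm9. Per the file headers, strand was ignored and both mates counted on their own. Reads with more than 1 gene or alignment were dropped under these settings. Any read aligned to both Orm1 and Orm2 would thereby be lost from both, and the number of such reads was not measured. A deposited table of the authors' comparison (log2 fold change, mean log2 CPM, p-value and false discovery rate) was not used.

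The fits used R 4.3.3, edgeR 4.0.16 (filterByExpr, TMM, glmQLFit and glmQLFTest), limma 3.58.1 and DESeq2 1.42.0. Standard errors come from the F statistic. Log2 CPM used a prior count of 2. Sequences were searched with Python 3.11.15 and Biopython 1.88, and figures drawn with matplotlib 3.10.9. GENCODE M21 transcripts on GRCm38 gave the shared 100-base windows. The fits were first tested on simulated counts with known changes. There, a larger share of the calls of DESeq2 and of the likelihood ratio test was false than of those of the quasi-likelihood test. Those counts were drawn in a single run, with the spread of each gene that edgeR had fitted and without the length trend. The order of the tests may differ in the real livers.

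The members, lists and tests were chosen with earlier results of these data known. Named were all 10 genes, their paralogs, and of each list every called gene, the gene with the smallest p in each direction and defining markers, with the 5 genes most like the member of widest range. Other list genes were named after their values were seen. The alternatives were other scaling factors, tests, filters and call rules, a replicate block, length offsets (loess, span 0.3), summed paralogs and each liver left out. The count of genes lowest in 1 liver under other scalings was added after seeing the data. Livers of 1 group differed by more than sampling of reads gives (median chi-square of a gene 2.23 to 8.19 over the pairs), so each was 1 replicate.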

Additional observations from a re-analysis of the deposited data

How the results depend on the processing

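With the settings used above, 121 genes were called over all, with 0 of the 10 acute phase genes and 2 genes of the lists. DESeq2 called 431, 1 and 7, the likelihood ratio test 447, 1 and 8, and length offsets 249, 1 and 7. The unadjusted p with the fold minimum gave 783, 2 and 10. The acute phase gene gained by DESeq2, the likelihood ratio test and length offsets was Apcs. Library totals in place of TMM gave 120 calls, split 68 lower and 52 higher against 53 and 68 with TMM, and 4 list genes. No filter on low counts also gave 4 list genes. Same-numbered livers had correlations of their deviations of -0.517, -0.0804 and 0.121, and differently numbered livers had -0.586 to 0.578. The deviations hold the length trend, so these values cannot tell whether the numbers pair the livers. With the replicate block, 8 genes were called over all and 0 of the lists. The replicate block with length offsets called 1 acute phase gene, Apcs (adjusted p = 0.0493). Leaving out 1 liver gave 9 (without FXR-WT replicate 3) to 66 calls over all, 0 of the acute phase genes and 0 to 2 of the lists. Orm2 turned to 0.15 without FXR-WT replicate 3 and to 0.23 without Y67F-FXR replicate 1 (range from -0.82), and Hpx to 0.13 without FXR-WT replicate 1 (range from -0.45). The cause was not tested, beyond the fewer livers in these fits. Of 154 values of the acute phase genes under the alternatives, 147 kept their direction and side of the threshold. Lbp kept a positive value of 0.26 to 0.37 in all 15 alternatives run. By scalings added after seeing the data, Y67F-FXR replicate 1 was lowest for 7 or 8 of the 10 genes.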
